A study of Homo sapiens with 12 samples.

Results

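The 10 human SR splicing factor genes SRSF1, SRSF2, SRSF3, SRSF4, SRSF5, SRSF6, SRSF7, SRSF9, SRSF10 and SRSF11 were followed through the nuclear and cytoplasmic RNA of HEK293T, an established human line of embryonic kidney origin. They were taken by gene symbol from the count files of all 12 libraries, where each of the 10 matched 1 of 67049 gene IDs, and all 10 passed the filter on low counts that left 20394 genes for testing. The cells had been transfected 48 h earlier with Lipofectamine 2000 and a plasmid encoding SF3B1, either pIRES2-SF3B1 WT or pIRES2-SF3B1 K700E. SF3B1 is a U2 snRNP subunit that helps to choose the branch point, and K700E is a substitution found in blood cancers. Each construct and fraction gave 3 libraries, so the 4 groups were WT nucleus, WT cytoplasm, K700E nucleus and K700E cytoplasm. The endogenous SF3B1 gene was present in all groups and no library from untransfected cells was analysed here. The series title names mRNA export from the nucleus.

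SR proteins carry RNA recognition motifs and a domain rich in arginine and serine, and they bind exonic enhancers to help define splice sites. Kinases of the SRPK and CLK families phosphorylate the arginine-serine domain, which controls entry into the nucleus and release from nuclear speckles. Several members shuttle to the cytoplasm, and SRSF1, SRSF3 and SRSF7 act as adaptors for the mRNA export receptor NXF1. SR genes also control their own output: many can splice in a "poison" cassette exon, or retain or splice an intron, so that the transcript gains an early stop codon and is degraded by nonsense-mediated decay.

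The annotation used here (GENCODE release 29, GRCh38) held at least 1 transcript marked for nonsense-mediated decay for all 10 members. For 6 of the 10, a cassette exon carrying the early stop was found, 9 exons in all. One exon, of the lowest-numbered such transcript, is shown for each of 5 members. These exons belong to transcripts annotated for nonsense-mediated decay, and neither their inclusion nor the decay was measured here. The exon of SRSF9, which reaches the end of its stop codon after 11 bases, is left out. Each is printed 5′ to 3′ on the gene's strand, from the first base of the exon to the early stop codon, which is in capitals.
SRSF3-203, exon of 456 bases on the plus strand at chr6:36599821-36600276: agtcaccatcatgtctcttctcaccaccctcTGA
SRSF4-204, exon of 195 bases on the minus strand at chr1:29159864-29160058: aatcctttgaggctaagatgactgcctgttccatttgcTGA
SRSF6-202, exon of 268 bases on the plus strand at chr20:43459153-43459420: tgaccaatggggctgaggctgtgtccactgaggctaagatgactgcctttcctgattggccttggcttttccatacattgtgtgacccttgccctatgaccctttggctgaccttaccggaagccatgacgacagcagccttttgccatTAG
SRSF7-203, exon of 276 bases on the minus strand at chr2:38748898-38749173: ggcagaaaatttgagacggTGA
SRSF11-212, exon of 117 bases on the plus strand at chr1:70231859-70231975: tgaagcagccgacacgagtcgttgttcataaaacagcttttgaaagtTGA
Over the stretches from exon start to stop, SRSF4 and SRSF6 shared a run of 20 bases, tgaggctaagatgactgcct, and the longest run shared by any other 2 members in such stretches of the 9 exons was 8 bases. Counts per gene sum productive and poison transcripts, so the levels below cannot say which of them changed.

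Nuclear libraries held 9086743 to 11200562 counts and cytoplasmic ones 13422598 to 18116929. The fraction labels matched the markers. The summed level of 6 nuclear RNAs was 2711 to 9859 CPM (counts scaled to library size, as given below) in the nuclear libraries. It was 102 to 152 in the cytoplasmic ones, although MEG3 had only 3 counts in all 12 libraries. The 13 mitochondrially encoded mRNAs summed to 907 to 1245 CPM in the nucleus. In the cytoplasm they summed to 4473 to 18783 CPM with WT and to 6108 to 7162 with K700E. Their cytoplasmic means were 12340 ± 7260 (SD, n = 3) and 6802 ± 601. Of the markers of the kidney line, NEFM, NEFL and LIN28B were detected, while LHX1 reached 1.00 CPM at most. Of 11 markers of other cell types, CD3E had 0 counts and the summed level was 17.7 to 139 CPM. SF3B1 was at 1577 ± 784 CPM (SD, n = 3) in WT nuclei and 1600 ± 500 in K700E nuclei, against 9430 ± 1061 and 7924 ± 882 in the matching cytoplasm. Nothing in the labels ties the replicates to separate cultures, so all p-values below reflect the scatter among the libraries sequenced, some or all of which may be technical.

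All levels are CPM after scaling of library sizes by the trimmed mean of M values (TMM). A level is therefore relative to the other RNA counted in its library and to the TMM factor, not an amount per cell. The factors were 1.05 to 1.25 in nuclear libraries and 0.84 to 0.87 in cytoplasmic ones, so ratios between the fractions depend on this scaling. Fewer molecules of one mRNA in a fraction and more of other RNA there cannot be told apart. A difference is a log2 fold change ± standard error (SE) from edgeR's quasi-likelihood test, and is called when its Benjamini-Hochberg adjusted p over all 20394 genes is under 0.05.

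The family had a different make-up in the 2 compartments. Per kb of exon, which allows levels to be compared between genes, SRSF11 took 38.7% ± 7.90 (SD, n = 3) of the family's summed CPM per kb in WT nuclei and 41.0% ± 6.55 in K700E nuclei, and it ranked first of the 10 members there. In the cytoplasm its share was 9.40% ± 0.81 with WT and 11.2% ± 2.02 with K700E. SRSF3 went the other way, from 3.58% ± 0.70 in WT nuclei, where it ranked 9, to 19.0% ± 0.87 in WT cytoplasm, where it ranked first. With K700E the share of SRSF3 was 3.04% ± 0.88 in the nucleus and 18.9% ± 0.14 in the cytoplasm. SRSF9 was the lowest of the 10 in the nucleus of both constructs, at 1.46% ± 0.40 of the family with WT. In the cytoplasm the lowest rank belonged to SRSF5, at 4.93% ± 1.22 with WT. Ranks depend on the length used: per kb of the longest transcript SRSF4 ranked lowest in the cytoplasm of both constructs, SRSF5 ranked 8 and SRSF3 ranked 8 in the nucleus, while SRSF11 in the nucleus, SRSF3 in the cytoplasm and SRSF9 in the nucleus kept their ranks.

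**Figure D1:**
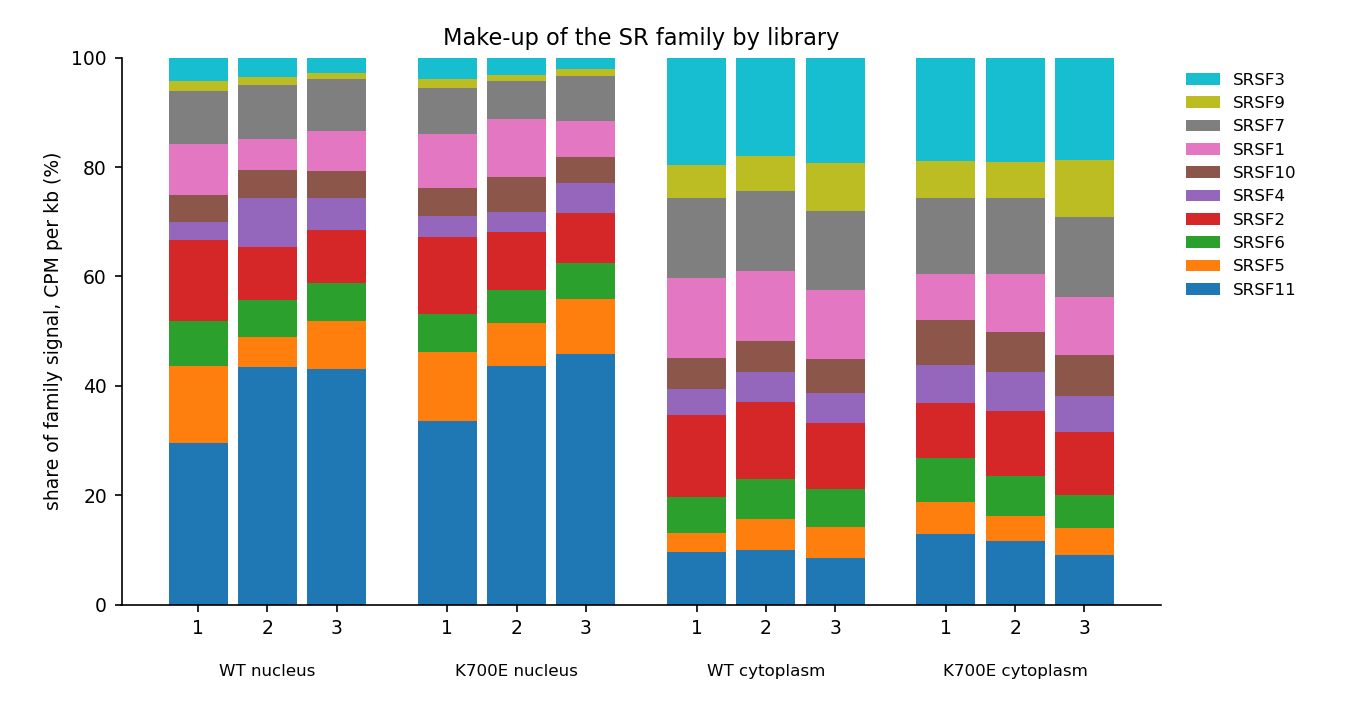
Share of each SR gene in the family's summed level per kb of merged exon length (vertical axis, %), 1 bar per library, numbered by replicate within the 4 groups. SRSF11 fills 29.5% to 45.8% of the nuclear bars and 8.50% to 13.0% of the cytoplasmic ones, while SRSF3 fills 2.12% to 4.29% and 18.0% to 19.6%.

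The 10 members summed to 7017 ± 1516 CPM (SD, n = 3) in WT nuclei and 4656 ± 299 in WT cytoplasm. With K700E the sums were 8886 ± 1259 and 3509 ± 250. Without SRSF11 they were 3541 ± 1223, 3980 ± 208, 4123 ± 560 and 2939 ± 215 in the same order, and the nuclear and cytoplasmic WT libraries then overlapped, at 2487 to 4882 and 3765 to 4179. The nuclear libraries spread widely: WT nucleus replicate 1 was the highest of its group for 8 of the 10 members and replicate 2 the lowest for 9.

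In WT cells, 2 of 10 members were higher in the cytoplasm than in the nucleus (background 27.1% of all genes tested) and 2 were lower (background 40.0%). The higher ones were SRSF3 and SRSF9, and the lower ones SRSF5 and SRSF11. In K700E cells the same 2 members were higher (background 28.1%), and 7 of 10 were lower (background 37.9%): SRSF1, SRSF2, SRSF4, SRSF5, SRSF6, SRSF10 and SRSF11. The 2 fractions did not overlap in their libraries for any of the 10 members with K700E, 2 higher and 8 lower, where the backgrounds were 30.2% and 40.4%. With WT they did not overlap for 3 members, SRSF3 and SRSF9 higher (background 29.7%) and SRSF11 lower (background 40.4%). The median log2 ratio of cytoplasm over nucleus over the 10 members was -0.17 with WT, against -0.40 over all genes. With K700E it was -0.88, against -0.29. The number lower with WT became 6 with library size alone as the scale, and 4 with at least 1 CPM required in all 12 libraries or with each library's GC trend removed. With K700E it was 8 with library size alone or the 1 CPM filter, and 6 with the GC trend removed or with no filter beyond 1 count. Without K700E nucleus replicate 2 the number lower with K700E was 4, SRSF1, SRSF4 and SRSF10 no longer passing.

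**Figure D2:**
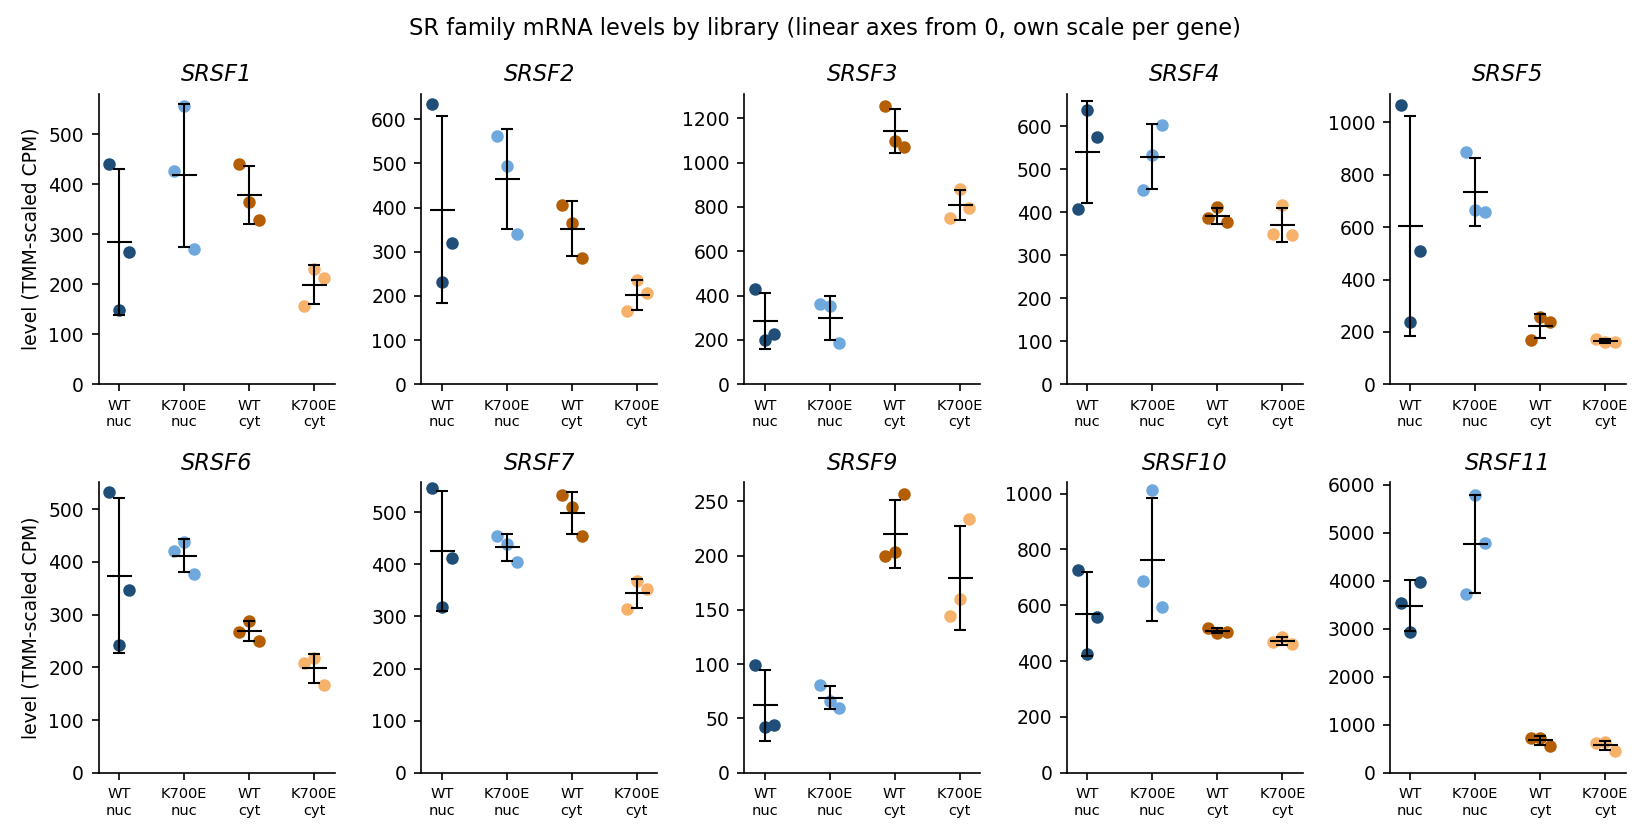
TMM-scaled CPM (vertical axes, linear from 0, with a scale for each gene) of the 10 SR genes in the 12 libraries; dots are libraries, the bar and whiskers the mean and SD of 3. SRSF3 and SRSF9 lie higher in every cytoplasmic library than in any nuclear one, and SRSF11 lies lower. WT nucleus has the widest spread for SRSF2 and SRSF5, while for SRSF1 the nuclei of both constructs spread about equally.

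Of the 3 export adaptors, SRSF3 (chr6:36594353-36605600, plus strand), the smallest SR protein, was the most cytoplasmic member. Its level was 432, 201 and 225 CPM in the 3 WT nuclear libraries and 1257, 1096 and 1071 in WT cytoplasm. With K700E it was 361, 351 and 185 CPM in the nucleus and 748, 882 and 795 in the cytoplasm. In both constructs every cytoplasmic library lay above every nuclear one. The log2 ratio was 2.0 ± 0.30 with WT, a 3.99-fold higher level in the cytoplasm (edgeR adjusted p = 2.53e-05, n = 3 libraries a group), and 1.43 ± 0.29 with K700E, 2.70-fold (adjusted p = 0.000481).

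SRSF7 (chr2:38743599-38751494, minus strand) had ratios near 0. It was at 546, 317 and 412 CPM in WT nuclei and at 533, 509 and 454 in WT cytoplasm, so the fractions overlapped. With K700E the nucleus gave 454, 439 and 404 CPM and the cytoplasm 314, 367 and 352, every cytoplasmic value below the nuclear ones. Neither ratio passed the test: 0.23 ± 0.21 with WT (edgeR adjusted p = 0.339) and -0.33 ± 0.21 with K700E (adjusted p = 0.176). The WT ratio was -0.28 with library size alone and -0.08 with the 1 CPM filter. Under these settings the K700E ratio was -0.74 and -0.65 and passed the test (edgeR adjusted p = 0.00267 and 0.00854).

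SRSF1 (chr17:58003360-58007346, minus strand), the founding member, which promotes use of 5′ splice sites, was called in 1 of the 2 constructs. Its WT values were 440, 149 and 265 CPM in the nucleus and 442, 365 and 329 in the cytoplasm, with overlap. With K700E they were 427, 556 and 271 CPM in the nucleus and 156, 231 and 212 in the cytoplasm, without overlap. The log2 ratio was 0.41 ± 0.33 with WT (edgeR adjusted p = 0.275) and -1.07 ± 0.33 with K700E, 2.09-fold lower outside the nucleus (adjusted p = 0.00936). Without WT nucleus replicate 1, the highest nuclear library, the WT ratio was 0.90 and passed the test (edgeR adjusted p = 0.0170). Without K700E nucleus replicate 2 the K700E ratio was -0.81 (edgeR adjusted p = 0.0569). Another annotated gene on the same strand, AC015813.2, shares 56.6% of SRSF1's exon bases, with 0 to 9 counts of its own in any library. How reads in the shared bases were counted is not given in the sources used here. The level and share of SRSF1 per kb are therefore uncertain.

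SRSF2 (chr17:76734115-76737374, minus strand) is the classic marker of nuclear speckles and does not shuttle as the adaptors do. It gave 635, 232 and 320 CPM in WT nuclei and 406, 365 and 285 in WT cytoplasm, which overlapped. In K700E cells it gave 561, 494 and 339 CPM in the nucleus and 167, 235 and 205 in the cytoplasm, which did not. The log2 ratio was -0.17 ± 0.31 with WT (edgeR adjusted p = 0.640) and -1.20 ± 0.31 with K700E, 2.30-fold lower outside the nucleus (adjusted p = 0.00308). Without WT nucleus replicate 1 the WT ratio was 0.38 (edgeR adjusted p = 0.205). With library size alone it was -0.67 and passed (edgeR adjusted p = 0.0480). That setting lowered the K700E ratios too, to a median of -1.27 over the 10 members. MFSD11 lies across it on the opposite strand and overlaps 36.7% of its exon bases. MFSD11 had 704 to 1224 counts in nuclear libraries and 216 to 361 in cytoplasmic ones, where SRSF2 had 2647 to 8105 and 1948 to 4567. Whether counting used strand is not given in the sources used here, so reads of the pair may not be separable.

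**Figure D3:**
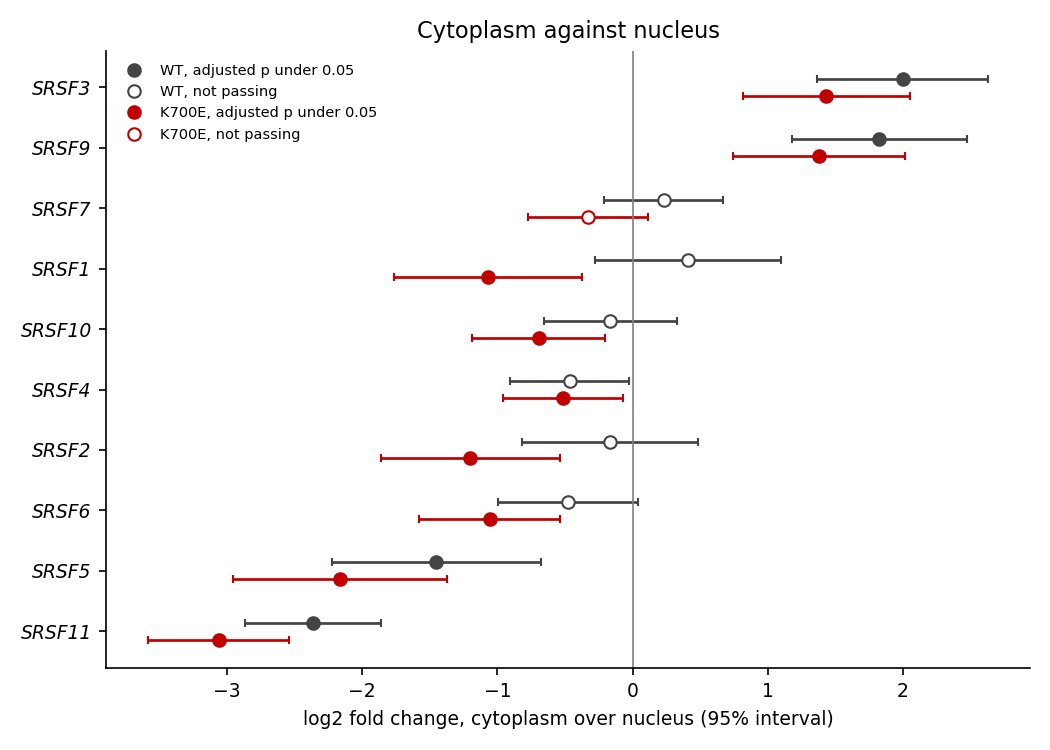
Log2 fold change of cytoplasm over nucleus (horizontal axis) for the 10 SR genes with WT (grey) and K700E (red), ordered by the mean of both; lines are 95% confidence intervals and filled dots passed the adjusted p threshold of 0.05. The order runs from SRSF3, at 2.0 and 1.43, to SRSF11, at -2.36 and -3.06.

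SRSF4, SRSF5, SRSF6 and SRSF9 carry a pair of RNA recognition motifs, as SRSF1 does. SRSF9 (chr12:120461668-120469793, minus strand) had the lowest nuclear level per kb and was, with SRSF3, one of the 2 members called higher in the cytoplasm. It gave 99.7, 41.8 and 44.4 CPM in WT nuclei against 200, 204 and 256 in WT cytoplasm, and 80.5, 66.5 and 60.1 against 144, 160 and 233 with K700E. No cytoplasmic library of either construct overlapped its nuclear libraries. The log2 ratios were 1.83 ± 0.31 with WT (3.55-fold, edgeR adjusted p = 7.52e-05) and 1.38 ± 0.30 with K700E (2.60-fold, adjusted p = 0.000835). GATC, on the opposite strand, overlaps 46.2% of SRSF9's exon bases, and its counts moved with the same fraction: 234 to 498 in nuclear and 680 to 1235 in cytoplasmic libraries, where SRSF9 had 477 to 1273 and 1687 to 3923. Its part in the SRSF9 values was not tested.

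SRSF5 (chr14:69726900-69772005, plus strand) was called lower in the cytoplasm of both constructs, and its WT nuclear libraries were the most scattered of the family. They gave 1065, 239 and 510 CPM, against 170, 257 and 237 in WT cytoplasm, so that WT nucleus replicate 2 lay inside the cytoplasmic range. With K700E the nucleus gave 885, 665 and 657 CPM and the cytoplasm 173, 160 and 161, with no overlap. The log2 ratio was -1.45 ± 0.37 with WT, 2.73-fold lower (edgeR adjusted p = 0.00244), and -2.16 ± 0.38 with K700E, 4.47-fold lower (adjusted p = 0.000112). Without WT nucleus replicate 1 the WT ratio was -0.73 and still passed (edgeR adjusted p = 0.0289).

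SRSF6 (chr20:43457928-43464247, plus strand) and SRSF4 (chr1:29147743-29181987, minus strand), whose poison exons share the 20-base run above, had smaller ratios. SRSF6 was at 533, 242 and 347 CPM in WT nuclei, 267, 289 and 250.5 in WT cytoplasm, 421, 438 and 377 in K700E nuclei and 209, 218 and 167 in K700E cytoplasm. Its ratio was -0.48 ± 0.24 with WT (edgeR adjusted p = 0.0946) and -1.06 ± 0.25 with K700E, 2.08-fold lower (adjusted p = 0.00139). The WT ratio of SRSF6 passed with library size alone (-0.98), the 1 CPM filter (-0.78), the GC trend removed (-0.41) and without WT nucleus replicate 2 (-0.68), and was -0.10 without WT nucleus replicate 1. SRSF4 was at 407, 638 and 575 CPM in WT nuclei, 387, 411 and 376 in WT cytoplasm, 452, 532 and 603 in K700E nuclei and 348, 417 and 346 in K700E cytoplasm. For both genes the fractions overlapped with WT and not with K700E. The SRSF4 ratios were nearly equal in size, -0.46 ± 0.21 with WT (edgeR adjusted p = 0.0589) and -0.51 ± 0.21 with K700E (adjusted p = 0.0391), on either side of the threshold. The SRSF4 call with K700E was lost in 7 of the 12 refits that each left out 1 library. Over all 12 refits this ratio was -0.61 to -0.41. The SRSF4 ratio with WT passed with DESeq2 or its size factors (-0.53 in both), library size alone (-0.99), the 1 CPM filter (-0.79), the GC trend removed (-0.53) and without WT nucleus replicate 1 (-0.60). With the GC trend removed the SRSF4 calls changed places, the K700E ratio being -0.34 (edgeR adjusted p = 0.168).

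SRSF10 and SRSF11 stand somewhat apart from the classic members. SRSF10 (chr1:23964804-23980927, minus strand) becomes a splicing repressor when it is dephosphorylated, as in heat shock. It was at 725, 426 and 557 CPM in WT nuclei and 518, 501 and 505 in WT cytoplasm, with overlap, and at 686, 1012 and 592 in K700E nuclei and 468, 487 and 460 in K700E cytoplasm, without. The cytoplasmic spread was small, with an SD of 9.01 CPM for WT and 13.8 for K700E. The log2 ratio was -0.16 ± 0.23 with WT (edgeR adjusted p = 0.544) and -0.69 ± 0.23 with K700E (adjusted p = 0.0153). The K700E ratio was -0.44 without K700E nucleus replicate 2 and -0.65 without K700E cytoplasm replicate 3, which did not pass (edgeR adjusted p = 0.0943 and 0.0507). The WT ratio was 0.08 without WT nucleus replicate 1. With library size alone, which lowered the K700E ratios of the family too, it was -0.67 and passed (edgeR adjusted p = 0.00682).

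SRSF11 (chr1:70205682-70253052, plus strand), a splicing factor with 1 RNA recognition motif that interacts with U2AF, was the most nuclear member. It gave 3536, 2921 and 3971 CPM in WT nuclei against 733, 731 and 562 in WT cytoplasm, and 3731, 5782 and 4775 against 616, 640 and 456 with K700E. The lowest nuclear library was several times above the highest cytoplasmic one in each construct. The log2 ratio was -2.36 ± 0.24 with WT, a 5.15-fold difference (edgeR adjusted p = 5.13e-07), and -3.06 ± 0.25 with K700E, 8.35-fold lower (adjusted p = 6.64e-08). It is also the longest of the 10 genes, with 47371 bases from start to end, and its longest transcript has the lowest GC content, 36.6%, against a median of 40.6% for the members and 47.5% for all genes tested. With the GC trend removed the SRSF11 ratio was -2.07 with WT and -2.49 with K700E, and both still passed (edgeR adjusted p = 3.47e-08 and 7.32e-09). The part of gene length in the ratio was not tested.

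Ordered by the mean ratio of both constructs, the members ran SRSF3, SRSF9, SRSF7, SRSF1, SRSF10, SRSF4, SRSF2, SRSF6, SRSF5 and SRSF11. Neighbours were taken to be apart where the difference of their log2 levels in the 3 cytoplasmic libraries did not overlap that in the 3 nuclear ones. In both constructs that held for SRSF9 and SRSF7 and for SRSF6 and SRSF5. SRSF7 and SRSF1, and SRSF5 and SRSF11, were apart with K700E only, and SRSF1 and SRSF10 with WT only. SRSF3 and SRSF9, SRSF10 and SRSF4, SRSF4 and SRSF2, and SRSF2 and SRSF6 were apart in neither. The order and this check use the same libraries, so the check describes the order and does not test it. No background share was computed for it.

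Likeness over the 12 libraries was measured as the root mean square difference of log2 CPM after each gene was centred on its own mean. SRSF3 was nearest to SRSF9 among the members, at 0.28, and SRSF11 farthest from SRSF3, at 2.28. SRSF2 and SRSF6 were the nearest pair in the family, at 0.25, and SRSF1 was nearest to SRSF2, at 0.27. Among all genes tested with at least 5 CPM on average, the 4 nearest to SRSF3 were EIF2S1, KPNA2, PRNP and G3BP2, at 0.15 to 0.16. The 4 nearest to SRSF11 were NKTR, at 0.12, then ADGRV1, CCDC150 and ZNF224, at 0.18 to 0.19. NKTR, which encodes a cyclophilin with its own arginine-serine-rich region, had log2 ratios of -2.31 with WT and -2.96 with K700E, against -2.36 and -3.06 for SRSF11. ADGRV1, CCDC150 and ZNF224 had -2.64 to -2.46 with WT and -2.99 to -2.77 with K700E. These genes were picked by likeness in the same libraries, so similar ratios follow from the choice.

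Between constructs, no single member passed the test in the nucleus, in the cytoplasm or for the shift of the ratio between them. In the nucleus, edgeR called 0 of 10 members in either direction (background 0%), and 0 members had an unadjusted p under 0.05 (background 6.81%, 1389 genes, while DESeq2 called 1 gene in all). The log2 fold change of K700E over WT was above 0 for 9 of 10 members, where 45.8% of all genes were above 0. Its median was 0.19 against -0.05 over all genes. The 3 highest values were 0.55 ± 0.33 for SRSF1, 0.45 ± 0.23 for SRSF11 and 0.42 ± 0.23 for SRSF10 (edgeR adjusted p = 0.661, 0.659 and 0.659). The K700E and WT nuclear libraries overlapped for all 10 members. These signs rest on single libraries: without WT nucleus replicate 2, 6 of 10 members lay below 0 with a median of -0.05, and without WT nucleus replicate 1 the median was 0.57 and 6 members had an unadjusted p under 0.05.

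A trend with GC content differed between nuclear libraries. The slope of log2 level on transcript GC content, per 10% of GC, was -0.087, 0.36 and -0.12 in WT nuclear replicates 1 to 3 and -0.12, -0.44 and -0.16 in K700E ones, so replicate 2 of each group carried the difference. All 10 members have transcripts of below-median GC content, 36.6% to 45.6%. With the trend removed from each library, 5 of 10 members were below 0 in the nucleus and the median was 0.05. In the cytoplasm the slopes were 0.01 to 0.26 with WT and -0.06 to 0.32 with K700E.

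In the cytoplasm, all 10 members had lower mean levels with K700E than with WT, where 47.6% of all genes had a log2 fold change below 0. The median was -0.44, against 0 over all genes. No member passed the adjusted edgeR test (background 0% lower, while 1 gene of 20394 was called higher). At an unadjusted p under 0.05, 3 of 10 members were lower (background 1.95%), out of 929 genes in either direction (4.56%). DESeq2 called 11 genes higher and 2 lower, none of them a member. For 6 members, SRSF1, SRSF2, SRSF3, SRSF6, SRSF7 and SRSF10, every K700E cytoplasmic library lay below every WT one (background 6.98%). The members are not independent of each other, since they come from the same 6 libraries: K700E cytoplasm replicate 2 was the highest of its group for 8 of the 10. All 10 stayed below 0 under every scaling, filter and test tried and in each refit that left out 1 library, with medians from -0.47 to -0.37. Without K700E cytoplasm replicate 1, 0 members had an unadjusted p under 0.05. The number was 5 with the GC trend removed and 6 with only the 6 libraries compared. WT cytoplasmic libraries also varied more in mitochondrially encoded RNA, as given above, and its part in these values was not tested.

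**Figure D4:**
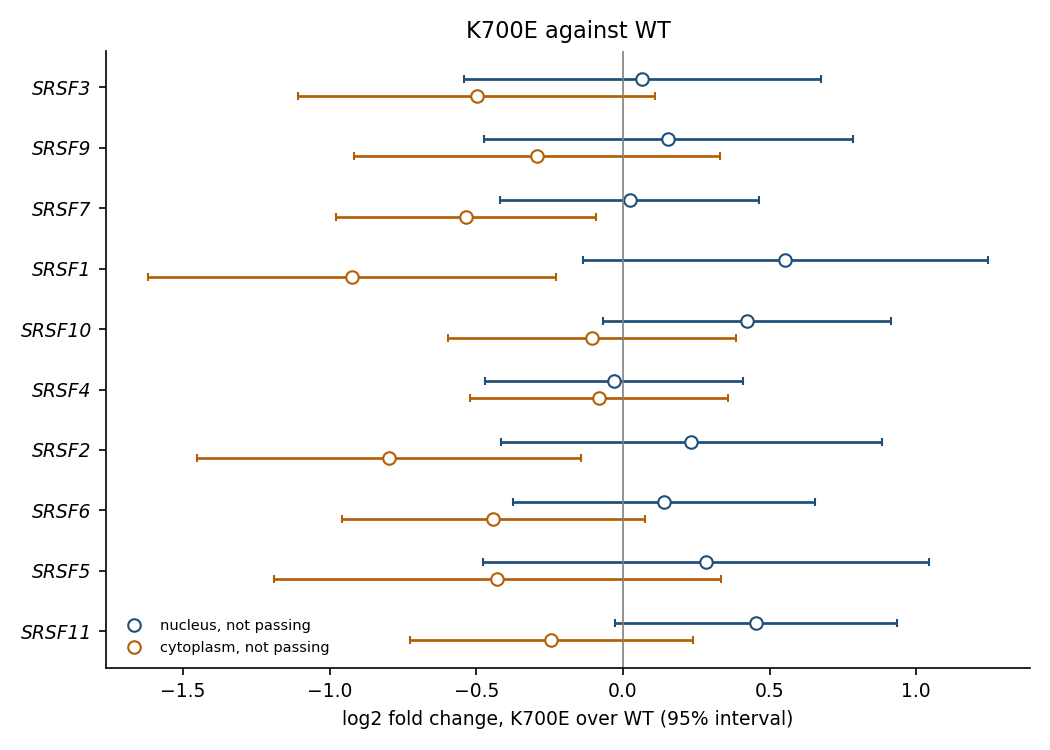
Log2 fold change of K700E over WT (horizontal axis) for the 10 SR genes in the nucleus (blue) and the cytoplasm (orange); lines are 95% confidence intervals and open dots did not pass the adjusted p threshold. All 10 cytoplasmic dots lie below 0, from -0.92 for SRSF1 to -0.08 for SRSF4, and 9 of 10 nuclear dots lie above it.

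Member by member, the cytoplasmic values can be read from the levels above. SRSF1 went from 378.7 ± 57.3 CPM with WT (SD, n = 3) to 199.6 ± 38.6 with K700E, a log2 fold change of -0.92 ± 0.33 (95% interval -1.62 to -0.23, edgeR unadjusted p = 0.0122, adjusted p = 1). SRSF2 went from 352 ± 62 to 202.5 ± 34.4 CPM, -0.80 ± 0.31 (interval -1.45 to -0.14, edgeR unadjusted p = 0.0199, adjusted p = 1). SRSF7 went from 499 ± 40 to 344 ± 27 CPM, -0.53 ± 0.21 (interval -0.98 to -0.09, edgeR unadjusted p = 0.0208, adjusted p = 1). The other 7 ranged from -0.50 ± 0.29 for SRSF3 to -0.08 ± 0.21 for SRSF4, with intervals that include 0. For SRSF3 the means were 1141 ± 100 and 808 ± 68 CPM. The SRSF10 libraries did not overlap although its means, 508.1 ± 9.01 and 472 ± 13.8 CPM, were 1.08-fold apart.

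The ratio change (cytoplasm over nucleus, K700E against WT) compares the 2 fractions and the 2 constructs at once, and so shares its libraries with each comparison above. It was below 0 for all 10 members, where 46.3% of all genes were below 0, and its median was -0.57 against 0.05 over all genes. No member passed the adjusted test (background 0%, with 672 genes or 3.30% at an unadjusted p under 0.05, while DESeq2 called 2 genes higher and 1 lower). At an unadjusted p under 0.05, 3 members were lower (background 1.02%). They were SRSF1, at -1.48 ± 0.46 (95% interval -2.46 to -0.50, edgeR unadjusted p = 0.00547), SRSF2, at -1.03 ± 0.44 (interval -1.95 to -0.11, edgeR unadjusted p = 0.0306), and SRSF11, at -0.70 ± 0.32 (interval -1.38 to -0.02, edgeR unadjusted p = 0.0450). Each had an adjusted p of 0.980. So the called K700E ratios of SRSF1, SRSF2, SRSF4, SRSF6 and SRSF10, which were not called with WT, are not shown to differ from the WT ratios.

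The ratio change of SRSF4 was nearest to 0, at -0.05 ± 0.29, and was 0.06 with library size alone and 0.19 with the GC trend removed, which left 9 of 10 members below 0. Its 95% interval, -0.67 to 0.57, runs from 0.63 to 1.49 times the WT ratio, and changes within that range are not told apart. The interval is not a limit of detection, since SRSF1, at -1.48, did not pass the adjusted test either. With the GC trend removed the median over the 10 members was -0.38. Without WT nucleus replicate 2 all 10 stayed below 0 with a median of -0.36 and 1 member at an unadjusted p under 0.05. Without WT nucleus replicate 1, 9 of 10 were below 0, the median was -0.95 and 8 members had an unadjusted p under 0.05.

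**Figure D5:**
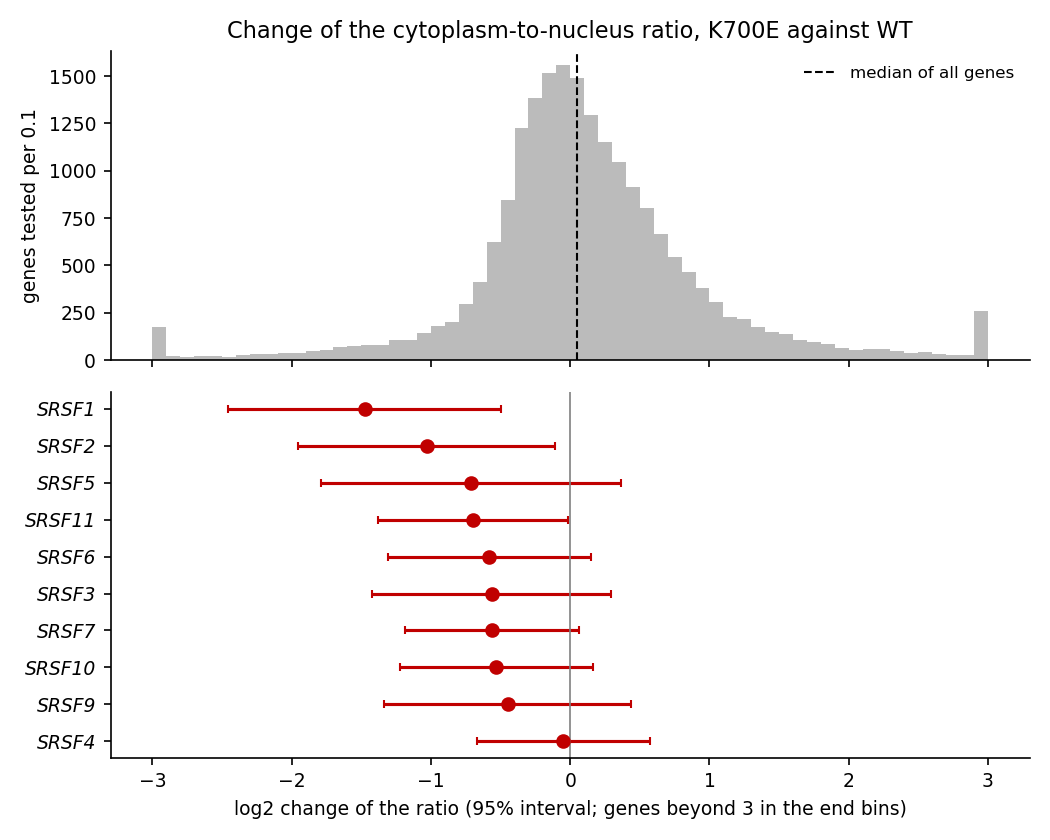
Above, the number of genes tested per 0.1 of the log2 ratio change with K700E (values beyond 3 in the end bins; dashed line, median of all genes, 0.05); below, the 10 SR genes with 95% confidence intervals on the same horizontal axis. All 10 dots lie left of 0, from -1.48 for SRSF1 to -0.05 for SRSF4, and the intervals of SRSF1, SRSF2 and SRSF11 end left of 0.

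Other genes of the SR pathway were split between the fractions. Of 20 relatives of the family with arginine-serine-rich regions, 7 were higher in WT cytoplasm and 4 lower (background 27.1% and 40.0%), with a median log2 ratio of 0.18. With K700E, 4 were higher and 5 lower (background 28.1% and 37.9%), with a median of -0.16. SRSF8, a close relative of SRSF2, had ratios of 1.94 ± 0.21 and 1.54 ± 0.21 (edgeR adjusted p = 1.08e-06 and 1.08e-05). RNPS1, a component that binds the exon junction complex, had 1.5 ± 0.20 and 1.53 ± 0.20 (adjusted p = 8.43e-06 and 7.17e-06). SREK1, which has its own arginine-serine-rich domain, was the lowest, at -1.35 ± 0.22 and -1.92 ± 0.22 (adjusted p = 6.06e-05 and 2.23e-06). The change of the ratio was below 0 for 17 of the 20 relatives (46.3% of all genes) with a median of -0.23, against 0.05 over all genes, and none was called. For K700E over WT in the cytoplasm, 15 of the 20 were below 0 (47.6% of all genes), with a median of -0.22.

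Of 13 genes for kinases, phosphatases and importers of SR proteins, 12 could be tested. With WT 6 were higher in the cytoplasm and 4 lower (background 27.1% and 40.0%), and with K700E 5 and 5 (28.1% and 37.9%), with medians of 0.39 and 0.23. The kinases CLK1 and CLK4, which phosphorylate SR proteins inside the nucleus, were lower in the cytoplasm, CLK1 at -2.23 with WT and -2.47 with K700E and CLK4 at -1.57 and -1.94. PPP1CA, a catalytic subunit of protein phosphatase 1, was at 2.70 and 3.03. Between constructs 0 of the 12 were called. In the cytoplasm 7 of the 12 were below 0 for K700E over WT, with a median of -0.02.

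Among 11 partners in splice site choice and export, 5 were higher and 2 lower in WT cytoplasm (background 27.1% and 40.0%), and 5 and 1 with K700E (28.1% and 37.9%), with medians of 0.45 and -0.04. ALYREF, the export adaptor of the TREX complex, had a log2 ratio of 2.61 with WT and 2.57 with K700E. U2AF1, the small subunit that reads the 3′ splice site, was at -2.42 and -3.05, but an almost identical gene copy makes its counts uncertain. Of 10 genes of nonsense-mediated decay, 3 were higher and 3 lower with WT (background 27.1% and 40.0%), and 4 and 3 with K700E (28.1% and 37.9%), with medians of 0.04 and 0.25. SMG8 was at 2.38 and SMG1, the kinase of the pathway, at -1.51 with WT. No gene of these lists was called between constructs or for the change of the ratio, whose medians were -0.04 for the partners and -0.01 for the decay genes, against 0.05 over all genes. For K700E over WT in the cytoplasm, 9 of 11 partners were below 0 with a median of -0.31, as in the nucleus. Of the decay genes, 4 of 10 were below 0 in the cytoplasm, with a median of 0.03.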

How the data were processed

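The authors deposited 1 file per library with raw counts per gene, and HISAT2 and DESeq are named, with no version, per the submitters' processing notes. How reads were assigned to genes, with or without strand, and on which build and annotation, is not given in the sources used here. Libraries were made with a NEBNext Ultra kit, per the labels' protocols. Of 67049 IDs, 60463 were given a symbol, without ID versions; coordinates, lengths, transcripts and sequences come from GENCODE release 29 on GRCh38, where 37347 IDs had the same version, 21049 an older one than in the files, and 8609 were absent.

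The deposited counts were fitted with edgeR 4.0.16 in R 4.3.3: quasi-likelihood F tests on 12 libraries, 1 term per group, TMM scaling, filterByExpr (minimum count 10, minimum total 15), a prior count of 2 and Benjamini-Hochberg adjustment over 20394 genes in each of 5 comparisons. The biological coefficient of variation was 0.306. Levels per kb used merged exon length. The scripts were tested on simulated counts. Alternatives were DESeq2 1.42.0, its size factors, limma 3.58.1 voom, library size alone, 2 other filters, only the 6 libraries compared, replicate blocks, removal of the GC trend and leaving out each library. All 10 members are named. The likeness rule took, among genes averaging at least 5 CPM, the 4 nearest to the member at each end of the ratio order, and list genes are examples from the called members with the highest or lowest ratios. Members and lists were chosen with earlier results of these data known. Reads, junctions and splicing were not analysed here.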

Additional observations from a re-analysis of the deposited data

How the results depend on the processing

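Of 470 fold changes of members under other scalings, filters, tests and blocks, 444 kept their direction and side of the threshold. No member was called between constructs or for the ratio change, so there the side of the threshold says little about stability. Calls of cytoplasm against nucleus were the ones that moved. With WT the members lower numbered 6 with library size alone, which moved the median of all genes from -0.40 to -0.92, and 4 with the 1 CPM filter or the GC trend removed; leaving out a library gave 2 to 3 higher and 2 to 3 lower. With K700E the members lower were 8 with library size alone or the 1 CPM filter, 6 with the GC trend removed or no filter, and 4 to 7 when a library was left out. With the 1 CPM filter, which tests fewer genes, 4074 genes were lower in WT cytoplasm and 3938 in K700E cytoplasm.

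For K700E against WT, all genes called higher and lower numbered 10 and 26 in the nucleus, 50 and 35 in the cytoplasm and 24 and 7 for the ratio with no filter beyond 1 count. With DESeq2, 1 gene was lower in the nucleus, 11 were higher and 2 lower in the cytoplasm, and 2 were higher and 1 lower for the ratio. Genes called higher in the cytoplasm numbered 0 with voom, with only the 6 libraries compared and with the replicate block. Leaving out a library gave 0 to 1 lower in the nucleus, 0 to 2 higher in the cytoplasm and 0 to 1 higher for the ratio. No member was called in these 3 comparisons under any alternative.

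Signs turned only for values not called as reported, although the WT ratios of SRSF1, SRSF2 and SRSF10 passed under other settings. With library size alone SRSF1 was at -0.087 and SRSF7 at -0.28 for the WT ratio, SRSF7 at -0.032 in the nucleus and SRSF4 at 0.058 for the ratio change. With the 1 CPM filter the WT ratio of SRSF7 was -0.082. With the GC trend removed the nuclear values were -0.19 for SRSF3, -0.089 for SRSF6, -0.18 for SRSF7 and -0.022 for SRSF9, and the ratio change of SRSF4 was 0.19. With no filter the nuclear value of SRSF4 was 0.024. Leaving out a library gave WT ratios of -0.41 to 0.38 for SRSF2 and -0.30 to 0.080 for SRSF10. In the nucleus it gave -0.034 to 0.76 for SRSF2, -0.13 to 0.49 for SRSF3, -0.19 to 0.11 for SRSF4, -0.094 to 0.98 for SRSF5, -0.092 to 0.49 for SRSF6, -0.14 to 0.25 for SRSF7 and -0.058 to 0.68 for SRSF9. The ratio change of SRSF4 was -0.19 to 0.11. The cause of these shifts was not tested.

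The replicate block by number left the members called at 2 higher and 2 lower with WT and 2 and 7 with K700E; the block within construct made the last 6, where SRSF4 no longer passed. Whether the numbers pair the samples is not known, and they were not used to pair them: the labels do not tie a number to a culture. Deviations of same-numbered libraries of 1 fraction correlated at 0.06 to 0.43 (nucleus) and 0.03 to 0.34 (cytoplasm) between constructs, against -0.33 to 0.13 and -0.28 to 0.17 for different numbers, and at -0.25 to 0.17 between fractions. Not every library correlated best with its own number.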
